A study of Mus musculus with 12 samples.

Results

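The mouse collagen genes other than the collagen VI chains were followed in PYMT cells, which take their name from a mouse mammary tumour model with the middle T antigen of polyoma virus. They were taken as every gene whose symbol has the collagen form, Col followed by the type number and chain, with the 6 collagen VI genes left out. That gave 38 of the 54347 genes in the table. Each of the 4 groups had 3 biological replicates of cells grown in matrigel. NT cells received no ligand, and the other groups received TGFB2, BMP4 or both (BMP4-TGFB2), each ligand at 5 ng/mL for 3 days. The medium was then changed, and cells of all groups were collected 2 days later. The labels describe neither a clone nor what separated the replicates, and the p-values cover only the spread among these replicates. The study was about programs of these ligands that induce dormancy in tumour cells.

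Collagens are secreted or membrane proteins built as triple helices of 3 chains, in which glycine stands at regular intervals. Fibrillar collagens form the cable-like fibrils of connective tissue, and the fibril-associated collagens with interrupted triple helices (FACIT) decorate their surface. Collagen IV forms the sheet of the basement membrane under an epithelium, collagen VII anchors that sheet to the stroma, collagen VIII forms hexagonal networks, and the multiplexins XV and XVIII sit in or beside basement membranes. TGFB2 and BMP4 belong to the transforming growth factor beta superfamily, signal through receptor kinases and SMAD transcription factors, and are known as regulators of matrix genes.

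By known structure the 38 genes were 11 fibrillar, 6 basement membrane, 1 anchoring fibril, 3 hexagonal network, 9 FACIT, 2 multiplexin and 4 transmembrane collagens, with 2 others. In all, 30 passed the filter on low counts that admits a gene on its reads in as few as 3 libraries. Of these, 20 reached the filter's minimum of 0.290 CPM (counts scaled to a library total of 1000000) in all 3 NT libraries. The other 10 reached it in fewer NT libraries and so were tested because of their level in treated libraries. Of these 10, 5 reached it in no NT library (Col5a3, Col4a3, Col14a1, Col20a1 and Col17a1). Col8a2, Col25a1, Col2a1, Col11a2 and Col15a1 reached it in 1 or 2. The 8 that did not pass were the fibrillar Col24a1, the hexagonal Col10a1, the FACIT genes Col19a1 and Col22a1, the transmembrane Col13a1 and Col23a1, and Col26a1 and Col28a1. No library held more than 18 counts of any of them, a number reached by Col26a1. The 38 genes together took 0.137% to 0.289% of a library's counts, of totals between 28543128 and 42167771.

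Transcripts of collagen IV are a special case because their genes lie in pairs that start beside each other and run in opposite directions. In GENCODE M21 on GRCm38, Col4a1 (chromosome 8, 11198423 to 11312826, minus strand) and Col4a2 (11312805 to 11449287, plus strand) start 21 bases apart. Col4a4 (chromosome 1, 82448423 to 82586849, minus) and Col4a3 (82586921 to 82722059, plus) start 72 bases apart. Col4a6 (chromosome X, 141165403 to 141474076, minus) and Col4a5 (141475385 to 141689234, plus) start 1309 bases apart. The start regions are shown here because the first 2 pairs share, or nearly share, a single start region. The starts of Col4a6 and Col4a5 lie farther apart, and their windows do not overlap. Col7a1 (chromosome 9, 108953586 to 108984875, plus) is added as the gene of the anchoring fibril. Each region shown is a RefSeq window on GRCm38.p6 of 250 bases before and 50 after a start, read 5′ to 3′ on the gene's strand. Capitals mark CAGAC or GGCGCC on either strand, so that GTCTG is CAGAC on the opposite strand. CAGAC and GGCGCC are short sequences that SMAD proteins are known to bind.
Col4a1, chr8:11312777-11313076, minus strand: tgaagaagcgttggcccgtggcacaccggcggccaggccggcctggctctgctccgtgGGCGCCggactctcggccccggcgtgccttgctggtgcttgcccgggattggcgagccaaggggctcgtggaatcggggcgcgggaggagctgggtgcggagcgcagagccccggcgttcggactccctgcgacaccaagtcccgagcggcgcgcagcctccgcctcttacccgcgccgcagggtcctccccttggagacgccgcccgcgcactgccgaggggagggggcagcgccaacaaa
Col4a2, chr8:11312555-11312854, plus strand: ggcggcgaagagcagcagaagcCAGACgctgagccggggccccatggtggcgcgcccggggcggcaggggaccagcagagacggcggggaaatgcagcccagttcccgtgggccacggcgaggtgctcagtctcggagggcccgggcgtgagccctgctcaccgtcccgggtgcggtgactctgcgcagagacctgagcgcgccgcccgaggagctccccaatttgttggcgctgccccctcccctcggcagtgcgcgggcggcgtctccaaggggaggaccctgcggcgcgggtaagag
Col4a4, chr1:82586800-82587099, minus strand: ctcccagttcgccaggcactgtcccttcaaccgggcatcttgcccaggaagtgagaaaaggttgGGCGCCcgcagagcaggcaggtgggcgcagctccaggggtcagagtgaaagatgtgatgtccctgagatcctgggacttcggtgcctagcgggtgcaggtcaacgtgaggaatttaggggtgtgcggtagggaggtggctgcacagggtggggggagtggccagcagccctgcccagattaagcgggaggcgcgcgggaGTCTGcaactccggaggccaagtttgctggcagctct
Col4a6, chrX:141474027-141474326, minus strand: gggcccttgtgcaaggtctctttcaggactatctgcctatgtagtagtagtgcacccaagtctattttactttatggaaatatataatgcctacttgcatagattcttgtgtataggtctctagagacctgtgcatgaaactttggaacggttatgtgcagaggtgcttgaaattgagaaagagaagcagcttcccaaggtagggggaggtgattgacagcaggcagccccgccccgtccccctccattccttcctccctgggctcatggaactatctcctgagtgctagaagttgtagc
Col4a5, chrX:141475169-141475468, plus strand: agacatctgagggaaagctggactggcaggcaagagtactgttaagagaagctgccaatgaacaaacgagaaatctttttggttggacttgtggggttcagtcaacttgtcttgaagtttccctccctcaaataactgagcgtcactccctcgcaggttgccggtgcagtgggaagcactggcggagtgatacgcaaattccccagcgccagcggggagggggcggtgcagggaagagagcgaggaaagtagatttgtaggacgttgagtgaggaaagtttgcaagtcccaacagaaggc
Col7a1, chr9:108953336-108953635, plus strand: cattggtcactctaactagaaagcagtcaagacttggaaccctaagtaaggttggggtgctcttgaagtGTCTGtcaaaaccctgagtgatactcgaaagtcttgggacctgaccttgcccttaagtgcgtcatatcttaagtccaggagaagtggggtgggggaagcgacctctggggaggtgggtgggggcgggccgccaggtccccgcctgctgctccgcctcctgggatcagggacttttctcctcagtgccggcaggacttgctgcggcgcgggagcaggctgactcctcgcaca

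The windows of Col4a1 and Col4a2 overlap and hold 74.0% and 73.7% G and C, against 48.3% for Col4a6 and 52.7% for Col4a5. Windows were found for 29 of the 38 genes, 31 windows in all. CAGAC stood in 17 of these 31 (54.8%) and in 49.6% of all 32851 RefSeq windows of that length. GGCGCC stood in 5 (16.1%) against 11.9%. The AP-1 motif TGANTCA stood in 0 of the 31, against 7.81% of all windows. Such matches describe the letters of these windows only.

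With TGFB2 the collagen transcripts went in both directions. The anchoring fibril gene Col7a1, the hexagonal Col8a1 and Col8a2, both multiplexins, 4 fibrillar genes, 2 FACIT genes and Col4a3 rose, while the collagen IV pair Col4a5 and Col4a6, the fibrillar Col11a1 and 3 FACIT genes fell. Of the 30 genes tested, 12 rose and 6 fell, where TGFB2 against NT called 22.4% of all 15319 genes tested (11.3% rose and 11.1% fell). The median log2 fold change of the 30 was 1.35, against 0.01 over all genes. With both ligands 10 rose and 7 fell, where 26.2% of all genes were called (13.3% rose and 12.9% fell), with a median of 0.90 against 0.01. With BMP4 alone 4 rose and 1 fell, where 5.45% of all genes were called (3.21% rose and 2.25% fell), and the median was 0.54 against 0.00. Each of these comparisons uses the same 3 NT libraries. Among the rises, Col5a3, Col4a3 and Col14a1 with TGFB2, and Col5a3 and Col17a1 with both ligands, reached the filter's minimum in no NT library. They were tested only through their level in treated libraries. Col8a2 and Col15a1, which rose in all 3 treated groups, and Col11a2, which rose with BMP4, reached it in 1 or 2 NT libraries. These genes too passed only with treated libraries counted, so none of the rises named here is independent of the filter. The counts and medians include them, and the shares over all genes come from the same filter. These are bulk RNA measurements, in which fewer cells of a type and less RNA per cell cannot be told apart. Calls are from the edgeR quasi-likelihood test at a Benjamini-Hochberg adjusted p under 0.05, fitted over all genes.

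**Figure D1:**
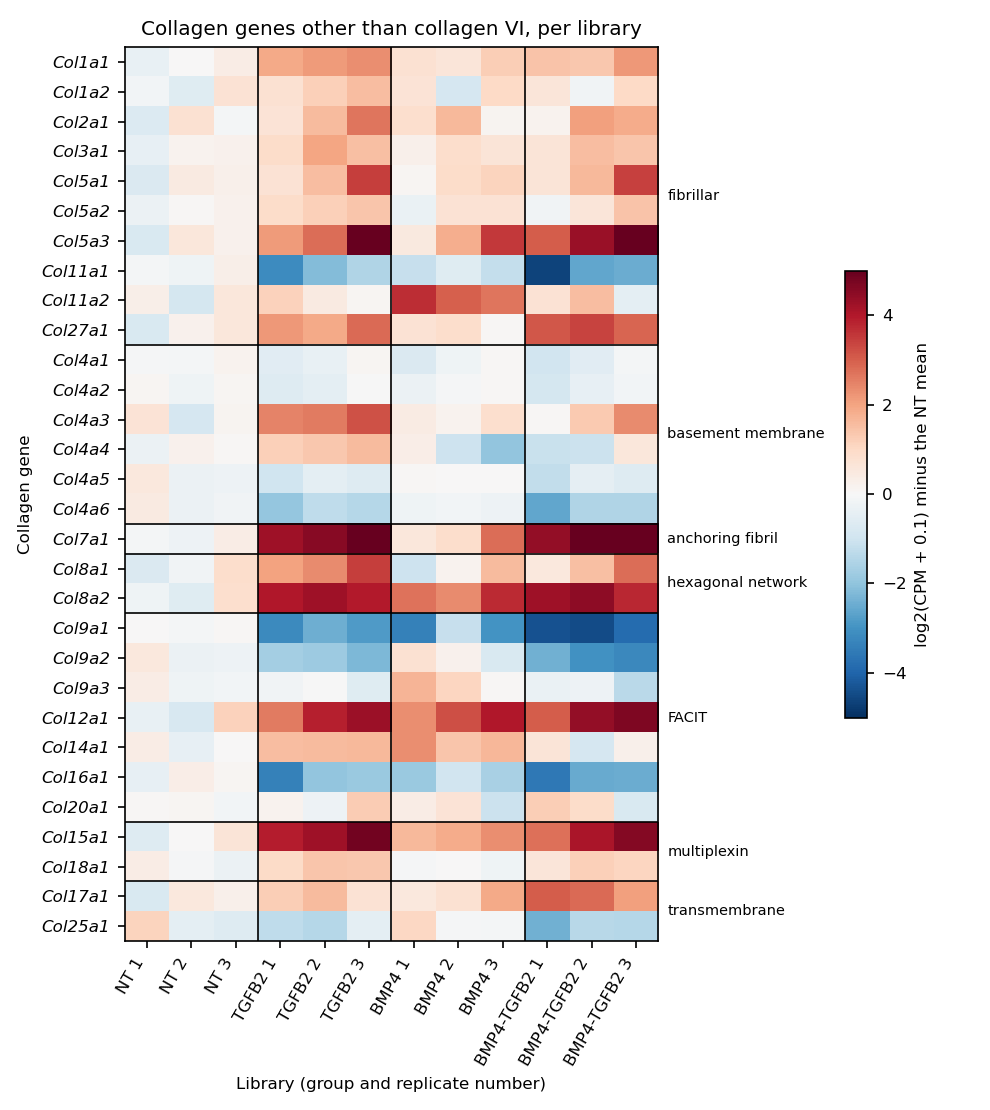
Level of the 30 tested collagen genes (rows, by class) in each of the 12 libraries (columns), as log2(CPM + 0.1) minus the mean of the 3 NT libraries, red above and blue below it, with colours limited at 5 either way. Col7a1, Col8a2, Col12a1 and Col15a1 are above the NT mean in all 9 treated libraries, and Col9a1, Col11a1 and Col16a1 are below it in all 9.

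The count of collagen genes called under BMP4, in either direction, moved with the libraries. Against 5 with all libraries, where 5.45% of all genes were called, it was 2 without NT replicate 1 (4.67% of all genes). It was 1 without NT replicate 2 (1.84%) and 3 without BMP4 replicate 3 (2.87%). Deviations of same-numbered NT and BMP4 libraries from their group means correlated above 0.1 for all 3 numbers. With the number as a block 11 collagen genes were called, 9 that rose and 2 that fell. That fit called 15.4% of all genes (8.6% rose and 6.78% fell). The 11 included the 5 called without the block. With it their adjusted p was 0.000236 for Col12a1, 0.0015 for Col15a1, 0.00266 for Col8a2, 0.0055 for Col11a2 and 0.0126 for Col9a1.

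**Figure D2:**
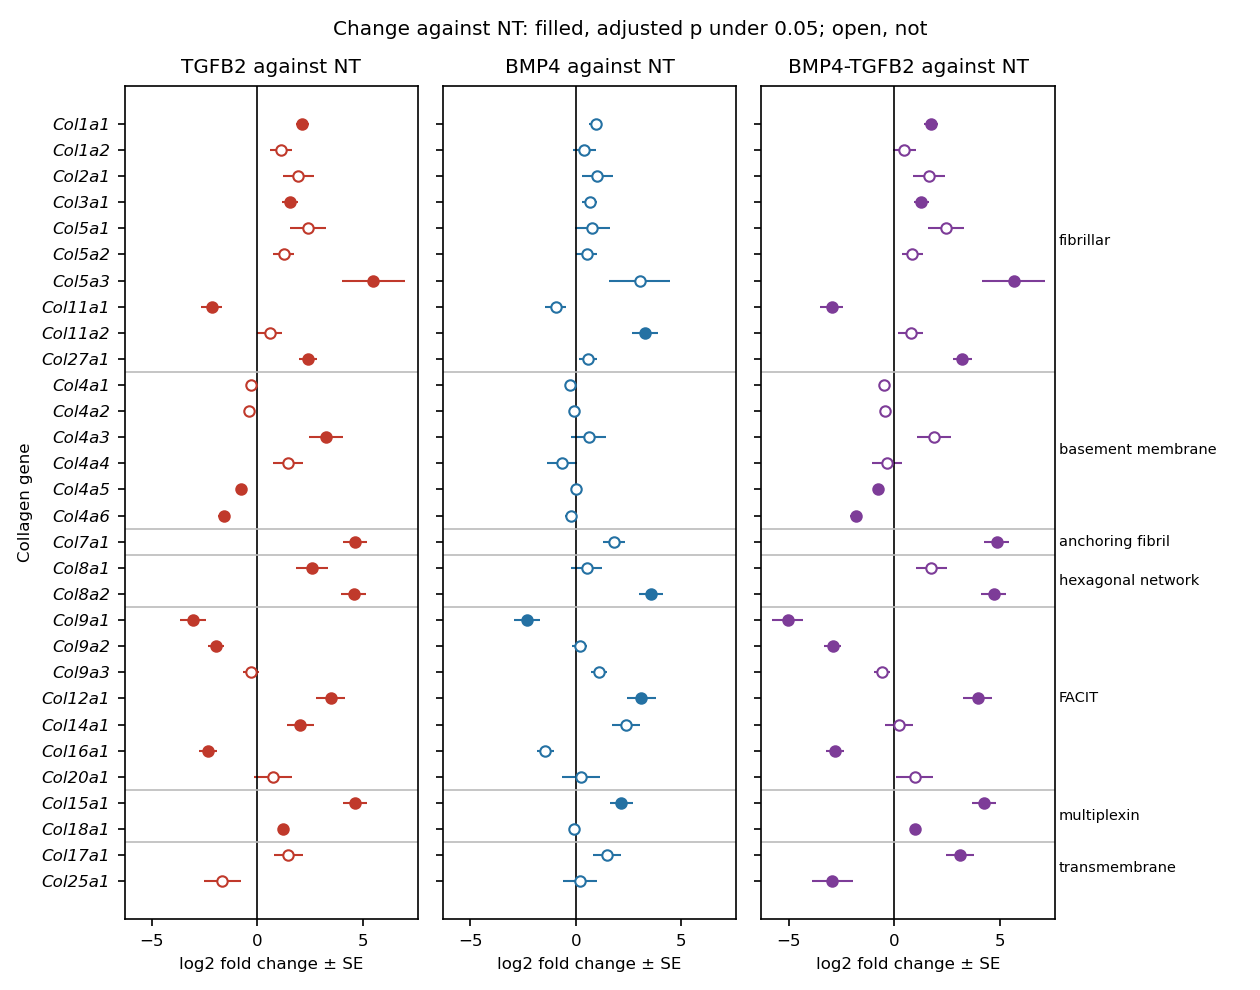
Log2 fold change against NT of the 30 tested collagen genes (rows) under TGFB2, BMP4 and both ligands (panels), with bars of 1 SE, and filled points for an adjusted p under 0.05. Filled points number 18 under TGFB2, 5 under BMP4 and 17 under both ligands.

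Of the 10 fibrillar genes tested, 4 rose and 1 fell with TGFB2, 1 rose with BMP4, and 4 rose and 1 fell with both ligands. Of all genes, 11.3% rose and 11.1% fell with TGFB2, 3.21% and 2.25% with BMP4, and 13.3% and 12.9% with both. Col1a1 encodes the main chain of collagen I (chromosome 11, 94936224 to 94953042, plus). It read 1.23, 1.6 and 2.07 CPM in NT, 6.12, 7.34 and 8.4 CPM with TGFB2, 2.79, 2.48 and 3.93 CPM with BMP4 and 4.49, 4.2 and 7.43 CPM with both. Every library of the 3 treated groups lay above every NT library. The log2 fold change was 2.14 ± 0.32 (SE, adjusted p = 0.000777) with TGFB2 and 1.73 ± 0.32 (adjusted p = 0.00221) with both ligands. With BMP4 alone it was 0.93 ± 0.31 (adjusted p = 0.121), and with the replicate block 0.94 (adjusted p = 0.0129), where it was called. Its partner chain Col1a2 read 1.28, 0.897 and 2.4 CPM in NT, 2.49, 3.32 and 4.26 CPM with TGFB2, 2.31, 0.732 and 2.89 CPM with BMP4 and 2.18, 1.23 and 2.91 CPM with both. For Col1a2 only the TGFB2 libraries stood all above NT, at 1.12 ± 0.54 (adjusted p = 0.163). Both genes stayed below 10 CPM in every library.

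Col3a1, whose collagen III accompanies collagen I in soft tissue, read 0.932, 1.46 and 1.5 CPM in NT and 2.49, 5.23 and 3.75 CPM with TGFB2. It read 1.55, 2.45 and 2.04 CPM with BMP4 and 2.04, 3.89 and 3.49 CPM with both. It rose with TGFB2 by 1.53 ± 0.37 (adjusted p = 0.0131) and with both by 1.28 ± 0.37 (adjusted p = 0.0258). The TGFB2 call was lost without TGFB2 replicate 2, at an adjusted p of 0.0545. The call for both ligands was lost when any of the NT libraries, or replicate 2 or 3 of the group with both, was left out (adjusted p of 0.051 to 0.0868 over the settings that lost it).

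Collagen V, which limits the width of collagen I fibrils, varied among its chains and replicates. Col5a3 read 0.0266, 0.224 and 0.15 CPM in NT, from 1, 8 and 5 counts, and 0.854, 1.42 and 16.4 CPM with TGFB2. It read 0.203, 0.668 and 2.4 CPM with BMP4 and 1.65, 4.2 and 14.7 CPM with both. Replicate 3 stood far above the other libraries in each treated group. BMP4 gave 3.03 ± 1.44 (adjusted p = 0.292), and 2.73 (adjusted p = 0.0224) with the replicate block, where it was called. Col5a3 rose by 5.49 ± 1.48 (adjusted p = 0.0212) with TGFB2 and by 5.67 ± 1.49 (adjusted p = 0.0167) with both ligands. The first call was lost when any NT library or TGFB2 replicate 3 was left out (0.063 to 0.103) and the second when any NT library was (0.0517 to 0.058). Col5a1 had the same high replicate with TGFB2 and with both ligands. It read 0.346, 0.897 and 0.778 CPM in NT, 1.11, 2.01 and 7.92 CPM with TGFB2, 0.684, 1.27 and 1.49 CPM with BMP4 and 1.05, 2.17 and 7.66 CPM with both. Its changes were 2.42 ± 0.85 (adjusted p = 0.0631) with TGFB2 and 2.43 ± 0.85 (adjusted p = 0.056) with both, neither called without a replicate block. Col5a2 read 0.506, 0.673 and 0.748 CPM in NT and 1.28, 1.58 and 1.8 CPM with TGFB2, the latter all higher, at 1.25 ± 0.5 (adjusted p = 0.0983). With BMP4 it read 0.482, 1.11 and 1.13 CPM and with both 0.551, 1.02 and 1.87 CPM, which overlapped NT.

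The cartilage-type fibrillar genes went different ways. Col11a1, a chain of collagen XI (chromosome 3, 114030540 to 114220718, plus), was the fibrillar gene with the most counts in NT, at 119, 110.1 and 158 CPM. It read 14.3, 28.2 and 45.1 CPM with TGFB2, 57.9, 84.6 and 55.4 CPM with BMP4 and 5.07, 20.8 and 23 CPM with both, and every treated library lay below every NT library. It fell with TGFB2 at a log2 fold change of -2.17 ± 0.51 (adjusted p = 0.0105) and with both at -2.98 ± 0.53 (adjusted p = 0.00176), while BMP4 alone gave -0.95 ± 0.49 (adjusted p = 0.332). Col11a2, another chain of the same collagen, was highest with BMP4 alone. It read 0.746, 0.28 and 0.928 CPM in NT, 1.42, 0.856 and 0.649 CPM with TGFB2, 8.95, 5.44 and 4.29 CPM with BMP4 and 1.05, 1.89 and 0.388 CPM with both. Only the BMP4 libraries stood apart from NT, with a rise of 3.28 ± 0.62 (adjusted p = 0.0117). That call was lost without NT replicate 2 (within an adjusted p range of 0.0572 to 0.0816 over the settings that lost it).

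Col27a1, a fibrillar gene also known from cartilage, read 0.32, 0.729 and 0.958 CPM in NT and 3.08, 2.6 and 4.99 CPM with TGFB2. It read 1.09, 1.21 and 0.639 CPM with BMP4, overlapping NT, and 6.03, 7.43 and 5.3 CPM with both ligands, the highest of the groups. It rose by 2.39 ± 0.43 (adjusted p = 0.00241) with TGFB2 and by 3.23 ± 0.44 (adjusted p = 0.000339) with both. Col2a1, the chain of cartilage collagen II, read 0.186, 0.673 and 0.329 CPM in NT and 0.64, 1.25 and 2.82 CPM with TGFB2, and was not called in any comparison without a replicate block. TGFB2 against NT gave 1.95 ± 0.75 (adjusted p = 0.0865). With BMP4 it read 0.71, 1.31 and 0.396 CPM and with both 0.413, 1.79 and 1.55 CPM.

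In the basement membrane class the X-linked pair Col4a5 and Col4a6 fell with TGFB2, and the abundant Col4a1 and Col4a2 were not called without a replicate block. Of the 6 collagen IV genes, 1 rose and 2 fell with TGFB2, none was called with BMP4, and 2 fell with both ligands. The shares of all genes called in these comparisons were 22.4%, 5.45% and 26.2%. Col4a1 and Col4a2, the chains of the common collagen IV network, were the most abundant of the class. Col4a1 read 305, 299 and 359 CPM in NT, 219, 245 and 338 CPM with TGFB2, 192, 272 and 329 CPM with BMP4 and 165, 215 and 301 CPM with both. Col4a2 read 364, 293 and 368 CPM in NT, 219, 245 and 336 CPM with TGFB2, 277, 329 and 358 CPM with BMP4 and 183, 259 and 312 CPM with both. All treated groups overlapped NT for Col4a1, and the log2 fold changes with TGFB2 were -0.28 ± 0.25 (adjusted p = 0.459) and -0.38 ± 0.21 (adjusted p = 0.232). With both ligands they were -0.49 ± 0.25 (adjusted p = 0.181) and -0.43 ± 0.21 (adjusted p = 0.16). With the replicate block TGFB2 gave -0.31 (adjusted p = 0.0596) for Col4a1, not called, and -0.40 (adjusted p = 0.0417) for Col4a2, called. The block also called Col4a1 (-0.53, adjusted p = 0.00476) and Col4a2 (-0.46, adjusted p = 0.022) lower under both ligands. The replicate numbers of these groups did not meet the rule used here for pairs.

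Col4a5 and Col4a6, whose chains assemble with each other in certain basement membranes, were lower wherever TGFB2 had been given. Col4a6 read 81.7, 49.2 and 52.8 CPM in NT, 15.6, 24.7 and 22.1 CPM with TGFB2, 51.4, 53.8 and 49.8 CPM with BMP4 and 9.86, 20.8 and 21.1 CPM with both. Every library with TGFB2 lay below every library without it, and the BMP4 libraries lay within the NT range. Col4a6 fell with TGFB2 at a log2 fold change of -1.57 ± 0.29 (adjusted p = 0.00256) and with both at -1.81 ± 0.29 (adjusted p = 0.000911). Col4a5 read 144, 82.1 and 84.2 CPM in NT, 49.7, 71.8 and 63.1 CPM with TGFB2, 103, 101 and 102 CPM with BMP4 and 42.8, 73.9 and 64.6 CPM with both. Its log2 fold changes were nearer 0, -0.77 ± 0.24 (adjusted p = 0.0391) with TGFB2 and -0.76 ± 0.24 (adjusted p = 0.0361) with both. NT replicate 1 was the highest library by a wide margin, and without it neither call held, within adjusted p ranges of 0.0508 to 0.14 and 0.0625 to 0.139 over the settings that lost them. Leaving out any TGFB2 library, or replicate 1 or 3 of the group with both, also ended the respective call.

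Col4a3 and Col4a4, chains of the basement membrane of kidney and lung, were scarce. Col4a3 read 0.266, 0.028 and 0.15 CPM in NT, from 10, 1 and 5 counts, and 1.16, 1.28 and 1.97 CPM with TGFB2. It read 0.203, 0.159 and 0.304 CPM with BMP4 and 0.138, 0.455 and 1.07 CPM with both. It rose with TGFB2 by 3.27 ± 0.81 (adjusted p = 0.0146), a call lost without NT replicate 2 or 3 (0.0524 to 0.0531), and with both ligands gave 1.89 ± 0.8 (adjusted p = 0.107). Reads were unstranded, and the overlapping opposite-strand transcript C430014B12Rik averaged 28.1% of the CPM of Col4a3, so its part in these counts cannot be told apart. Col4a4 read 0.613, 0.897 and 0.808 CPM in NT, 1.9, 2.07 and 2.48 CPM with TGFB2, 0.989, 0.318 and 0.122 CPM with BMP4 and 0.303, 0.315 and 1.2 CPM with both. Its TGFB2 libraries were all above the other groups, at 1.45 ± 0.69 (adjusted p = 0.16) against NT, which was not called.

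**Figure D3:**
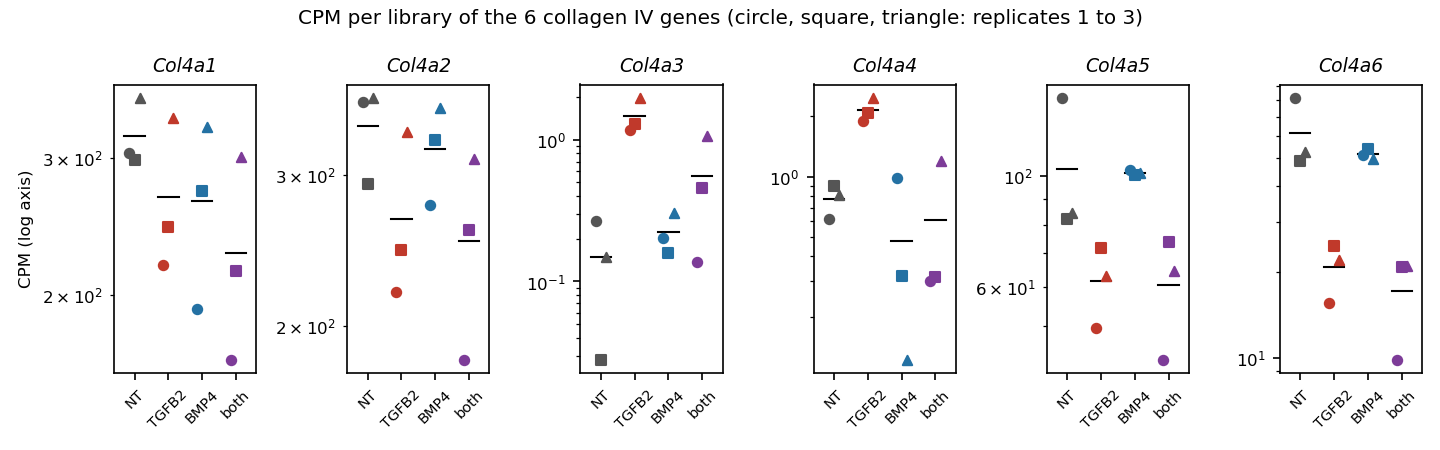
CPM on a log axis of the 6 collagen IV genes in each library, with circles, squares and triangles for replicates 1 to 3 and a line at the group mean. The Col4a6 libraries with TGFB2 or both ligands, at 9.86 to 24.7 CPM, sit below all NT and BMP4 libraries, at 49.2 to 81.7 CPM.

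The gene of the anchoring fibril was among the 3 collagens with the largest fitted rise under TGFB2, with Col5a3 and Col15a1. Col7a1 read 7.19, 6.39 and 9.82 CPM in NT and 147, 179.6 and 253 CPM with TGFB2. It read 11.3, 14.4 and 53.9 CPM with BMP4 and 161, 242 and 264 CPM with both ligands. All treated libraries lay above NT, those with TGFB2 far above those without it, and BMP4 replicate 3 stood above the other 2 of its group. The log2 fold change was 4.61 ± 0.57 (SE, adjusted p = 0.00025) with TGFB2 and 4.85 ± 0.58 (adjusted p = 0.00014) with both. BMP4 alone gave 1.8 ± 0.51 (adjusted p = 0.0697), not called, and 1.55 (adjusted p = 0.0133) with the replicate block, where it was called.

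Both hexagonal network genes rose with TGFB2. Col8a1, a chain of the collagen VIII found under endothelium and in vessel walls, read 14.7, 21.8 and 44.9 CPM in NT and 98.9, 127 and 268 CPM with TGFB2. It read 11.9, 27.8 and 73.7 CPM with BMP4 and 34.9, 68.5 and 169 CPM with both, and the TGFB2 libraries all stood above NT. In each group replicate 3 was the highest library. It rose by 2.58 ± 0.75 (adjusted p = 0.0301) with TGFB2, a call lost without NT replicate 1, NT replicate 2 or TGFB2 replicate 3 (0.0816 to 0.11). With both ligands it gave 1.75 ± 0.73 (adjusted p = 0.1), and 1.62 (adjusted p = 0.000145) with the replicate block, where it was called. Col8a2, the other chain, was scarce in NT at 0.107, 0.056 and 0.329 CPM, from 4, 2 and 11 counts. It read 3.75, 4.44 and 3.67 CPM with TGFB2, 1.47, 1.15 and 3.07 CPM with BMP4 and 4.43, 5.22 and 3.17 CPM with both. No treated group overlapped NT, and in the order TGFB2, BMP4 and both the rises were 4.56 ± 0.59 (adjusted p = 0.000329), 3.55 ± 0.58 (adjusted p = 0.00589) and 4.7 ± 0.6 (adjusted p = 0.000204). The BMP4 call was lost without all replicate 1 libraries, at an adjusted p of 0.0536.

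The 7 FACIT genes tested split in both directions. Under TGFB2 2 rose and 3 fell, under BMP4 1 and 1, and under both ligands 1 and 3. In that order 22.4%, 5.45% and 26.2% of all genes were called. Col12a1, whose collagen XII coats collagen I fibrils in tissues under tension (chromosome 9, 79598991 to 79718831, minus), rose in all 3 treated groups. It read 9, 6.75 and 26.5 CPM in NT, 71.5, 173 and 232 CPM with TGFB2, 58.5, 110.3 and 189 CPM with BMP4 and 95.9, 247 and 302 CPM with both. The treated groups overlapped one another and none overlapped NT. In the order TGFB2, BMP4 and both, the rises were 3.47 ± 0.68 (adjusted p = 0.004), 3.11 ± 0.67 (adjusted p = 0.0214) and 3.95 ± 0.69 (adjusted p = 0.00173), and the BMP4 call was lost without NT replicate 1, NT replicate 2 or BMP4 replicate 3 (0.0661 to 0.103).

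Collagen IX, a cartilage collagen made of the Col9a1, Col9a2 and Col9a3 chains, did not move as a unit. Col9a1 read 3.73, 3.39 and 3.77 CPM in NT and 0.308, 0.592 and 0.423 CPM with TGFB2. It read 0.254, 1.56 and 0.365 CPM with BMP4 and 0.0826, 0.0701 and 0.162 CPM with both, the last from 3, 2 and 5 counts. NT stood above every treated library, and its log2 fold changes were -3.06 ± 0.63 (adjusted p = 0.00527) with TGFB2, -2.32 ± 0.61 (adjusted p = 0.049) with BMP4 and -5.06 ± 0.72 (adjusted p = 0.000459) with both. The BMP4 call was lost when any NT library, BMP4 replicate 1 or BMP4 replicate 3 was left out (0.0866 to 0.159). Col9a2 read 28.5, 16 and 16.6 CPM in NT, 6.02, 5.56 and 4.06 CPM with TGFB2, 33.6, 22.9 and 11.4 CPM with BMP4 and 3.58, 2.35 and 2.04 CPM with both. It fell in the groups with TGFB2, at -1.98 ± 0.38 (adjusted p = 0.00355) and -2.92 ± 0.4 (adjusted p = 0.000336), and overlapped NT with BMP4 alone. Col9a3 read 30.1, 19.6 and 20.8 CPM in NT, 20.3, 22.5 and 15.1 CPM with TGFB2, 76.1, 48.3 and 24.3 CPM with BMP4 and 18.4, 19.2 and 9.01 CPM with both. No comparison of Col9a3 with NT was called, BMP4 giving 1.1 ± 0.38 (adjusted p = 0.132), and 0.99 (adjusted p = 0.0206) with the replicate block, where it was called.

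Col16a1, a FACIT gene of skin and cartilage, fell in each group with TGFB2. It read 43.2, 73 and 61 CPM in NT, 5.5, 14.6 and 15.9 CPM with TGFB2, 15.9, 29.5 and 18.8 CPM with BMP4 and 4.76, 9.91 and 10.4 CPM with both. All treated libraries lay below all NT libraries, with log2 fold changes of -2.33 ± 0.42 (adjusted p = 0.00251) with TGFB2 and -2.81 ± 0.43 (adjusted p = 0.000717) with both. BMP4 alone gave -1.45 ± 0.41 (adjusted p = 0.066), and -1.45 (adjusted p = 0.0014) with the replicate block, where it was called. Col14a1, another fibril-associated gene, stayed below 1.2 CPM throughout. It read 0.213, 0.0841 and 0.15 CPM in NT, 0.617, 0.625 and 0.649 CPM with TGFB2, 1.12, 0.541 and 0.669 CPM with BMP4 and 0.275, 0.035 and 0.194 CPM with both. Either ligand alone stood above NT while the group with both overlapped it. The TGFB2 rise of 2.04 ± 0.64 (adjusted p = 0.0415) was lost on leaving out any of the 6 libraries (0.0534 to 0.16), and BMP4 gave 2.38 ± 0.64 (adjusted p = 0.0565) and, with the replicate block, 2.39 (adjusted p = 0.02). Col20a1 reached at most 0.564 CPM, was called nowhere, and overlaps BX649560.1, a transcript with 1168% of its mean CPM.

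**Figure D4:**
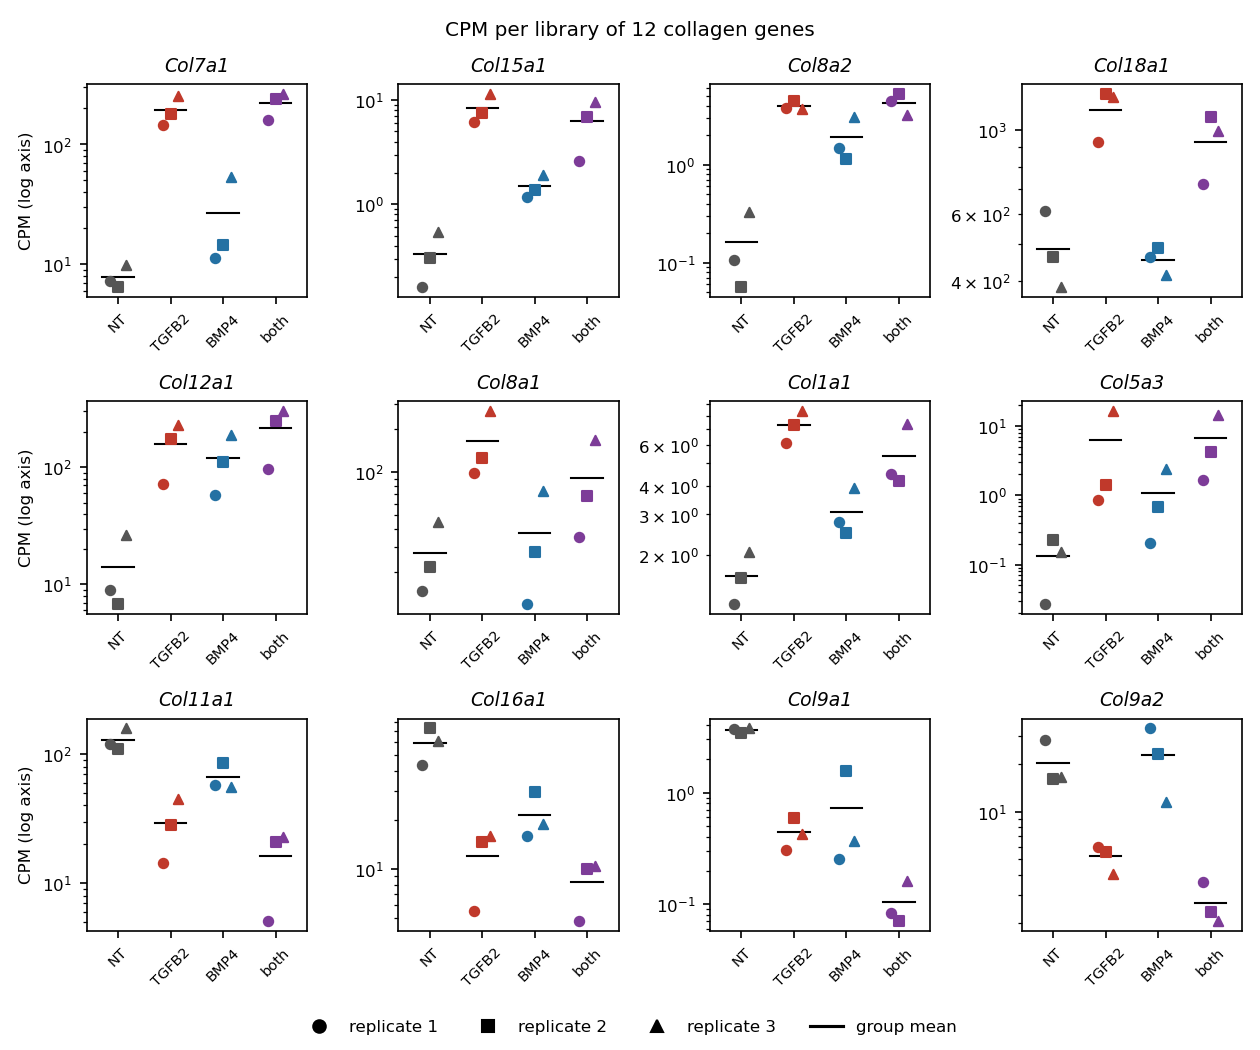
CPM on a log axis of 12 collagen genes in each library, by group, with symbols for replicates 1 to 3 and a line at the group mean. In the panels of Col7a1, Col15a1, Col18a1, Col8a2 and Col1a1 every library with TGFB2 lies above every library without it. In those of Col9a2 and Col11a1 every one lies below.

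Both multiplexins, which carry fragments known to limit vessel growth, rose where TGFB2 was present. Col18a1 (chromosome 10, 77052178 to 77166548, minus) had the highest CPM of the collagens in all groups, with 609, 460.5 and 384 CPM in NT and 929, 1243 and 1219 CPM with TGFB2. It read 461, 488 and 414 CPM with BMP4, overlapping NT, and 719.9, 1082 and 994 CPM with both. It rose by 1.2 ± 0.19 (adjusted p = 0.00124) with TGFB2 and by 0.96 ± 0.19 (adjusted p = 0.00389) with both. Col15a1 (chromosome 4, 47208161 to 47313167, plus) read 0.16, 0.308 and 0.539 CPM in NT and 6.14, 7.57 and 11.4 CPM with TGFB2. It read 1.17, 1.37 and 1.92 CPM with BMP4 and 2.62, 6.83 and 9.59 CPM with both, so that BMP4 alone lay between NT and the groups with TGFB2 without overlap. It rose by 4.61 ± 0.57 (adjusted p = 0.000255) with TGFB2, 2.16 ± 0.55 (adjusted p = 0.0431) with BMP4 and 4.25 ± 0.57 (adjusted p = 0.000293) with both. The BMP4 call was lost on leaving out NT replicate 1, NT replicate 2 or any BMP4 library (0.0708 to 0.164).

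Among the transmembrane collagens, Col17a1, a hemidesmosome component of basal epithelium, read 0.0533, 0.28 and 0.21 CPM in NT and 0.522, 0.691 and 0.338 CPM with TGFB2. It read 0.279, 0.35 and 0.882 CPM with BMP4 and 2.01, 1.75 and 1 CPM with both ligands, whose libraries lay above all others. It rose with both by 3.12 ± 0.68 (adjusted p = 0.00622), while TGFB2 gave 1.47 ± 0.67 (adjusted p = 0.141) and BMP4 1.48 ± 0.67 (adjusted p = 0.26). Col25a1, a neuronal collagen, read 1.07, 0.28 and 0.24 CPM in NT, 0.119, 0.0987 and 0.282 CPM with TGFB2, 0.989, 0.414 and 0.396 CPM with BMP4 and 0, 0.105 and 0.0969 CPM with both, the last from 0, 3 and 3 counts. It fell with both ligands, at -2.94 ± 0.97 (adjusted p = 0.0436), a call lost on leaving out any of the 6 libraries (0.0529 to 0.269 over the settings that lost it).

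Adding BMP4 to TGFB2 called no collagen gene with edgeR, and without a replicate block no other gene (0% of 15319 genes). Same-numbered libraries of these groups deviated together, and with the block edgeR called 6 genes (0.0392%), none of them a collagen. At an unadjusted p under 0.05 there were 5 collagen genes, 4 lower and 1 higher, where 3.37% of all genes reached that level (1.83% of all genes were lower and did so). DESeq2 called 51 genes, none of them a collagen. Those 4 lower genes were Col14a1 (-1.83 ± 0.64), Col9a1 (-2.0 ± 0.7), Col4a4 (-1.79 ± 0.7) and Col9a2 (-0.94 ± 0.38), and the higher one was Col17a1 (1.65 ± 0.63), all on the log2 scale with an adjusted p of 1. Col7a1, the anchoring fibril gene, differed by 0.23 ± 0.49 between these groups.

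Adding TGFB2 to BMP4 raised 4 collagen genes and lowered 6, where 9.22% of all genes were called (4.24% rose and 4.98% fell). The 4 that rose were Col7a1 by 3.05 ± 0.53 (adjusted p = 0.00484), Col27a1 by 2.66 ± 0.43 (adjusted p = 0.00332), Col15a1 by 2.08 ± 0.5 (adjusted p = 0.0243) and Col18a1 by 1.03 ± 0.19 (adjusted p = 0.00737). The 6 that fell were all 3 collagen IX chains, Col11a1, Col11a2 and Col4a6. Col9a2 fell, at -3.09 ± 0.4 (adjusted p = 0.00108), Col9a1 at -2.74 ± 0.7 (adjusted p = 0.0322) and Col9a3 at -1.68 ± 0.39 (adjusted p = 0.0198). Col11a2 fell, at -2.5 ± 0.59 (adjusted p = 0.0229), Col11a1 at -2.02 ± 0.51 (adjusted p = 0.0297) and Col4a6 at -1.59 ± 0.29 (adjusted p = 0.00587). Col7a1, Col18a1, Col27a1, Col9a2 and Col4a6 kept their calls under every alternative run. The total was 6 without BMP4 replicate 1, 5 without BMP4 replicate 2 and 6 without replicate 3 of the group with both. In that order these runs called 5.43%, 4.11% and 5.24% of all genes.

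Same-numbered BMP4 and BMP4-TGFB2 libraries also deviated together, and with the block 17 collagen genes were called, 8 higher and 9 lower, where that fit called 22.7% of all genes (10.7% higher and 12% lower). The 7 added by the block were Col8a1 at 1.31 (adjusted p = 0.00133), Col5a3 at 2.74 (adjusted p = 0.00368), Col1a1 at 0.78 (adjusted p = 0.0175), Col12a1 at 0.86 (adjusted p = 0.0446), Col16a1 at -1.41 (adjusted p = 0.00108), Col14a1 at -2.25 (adjusted p = 0.0183) and Col4a5 at -0.77 (adjusted p = 0.0482).

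Set directly against TGFB2, BMP4 cells had less Col7a1, Col15a1, Col18a1, Col27a1 and Col1a1 and more Col9a2, Col9a3, Col11a2 and Col4a6. Higher with BMP4 were 4 genes and lower 5, where 7.83% of all genes were called (4.16% higher and 3.67% lower). Higher were Col11a2 by 2.7 ± 0.6 (adjusted p = 0.018), Col9a2 by 2.15 ± 0.38 (adjusted p = 0.00587), Col9a3 by 1.4 ± 0.38 (adjusted p = 0.048) and Col4a6 by 1.36 ± 0.28 (adjusted p = 0.0138). Lower were Col7a1 at -2.81 ± 0.52 (adjusted p = 0.00757), Col15a1 at -2.45 ± 0.5 (adjusted p = 0.0126), Col27a1 at -1.82 ± 0.42 (adjusted p = 0.0214), Col18a1 at -1.27 ± 0.19 (adjusted p = 0.00278) and Col1a1 at -1.2 ± 0.31 (adjusted p = 0.0366). Col7a1, Col18a1 and Col9a2 kept the call under every alternative run. The count was 4 without TGFB2 replicate 3, 5 without BMP4 replicate 1 and 4 without BMP4 replicate 2, where 4.02%, 4.52% and 3.5% of all genes were called. With the replicate block, for which these numbers also qualified, 15 were called where 19.6% of all genes were. The added ones were Col8a1 at -2.31 (adjusted p = 8.51e-05), Col5a3 at -2.08 (adjusted p = 0.0166), Col3a1 at -0.85 (adjusted p = 0.0232), Col4a3 at -2.69 (adjusted p = 0.0258), Col16a1 at 0.96 (adjusted p = 0.00862) and Col11a1 at 1.37 (adjusted p = 0.0296).

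The interaction asked whether the effect of both ligands differed from the sum of the single effects on the log2 scale. In the edgeR fit without a replicate block no collagen gene passed, where 0.157% of all genes did. At an unadjusted p under 0.05 there were 8, where 8.42% of all genes reached that level, and all 8 were below the sum, as were 4.95% of all genes. The 8 were Col14a1 at -4.21 ± 0.91 (adjusted p = 0.113), Col8a2 at -3.41 ± 0.75 (adjusted p = 0.122), Col11a2 at -3.08 ± 0.83 (adjusted p = 0.227), Col15a1 at -2.53 ± 0.72 (adjusted p = 0.254), Col1a1 at -1.34 ± 0.44 (adjusted p = 0.371), Col12a1 at -2.64 ± 0.89 (adjusted p = 0.387), Col9a3 at -1.38 ± 0.54 (adjusted p = 0.48) and Col7a1 at -1.56 ± 0.7 (adjusted p = 0.588). DESeq2 called 4 collagen genes here, where it called 1.95% of all genes. Col14a1 passed the filter only through its level in the single-ligand groups. Col8a2, Col11a2 and Col15a1 passed it only with treated libraries counted. For Col12a1 both single ligands gave a rise above 3 log2 units and the pair of them 3.95.

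The deposited TPM values, which are scaled for transcript length as well as depth, allow levels to be set between genes. In NT, Col18a1 stood at 167 ± 36.7 TPM (SD, n = 3), Col4a2 at 81 ± 11.9 TPM, Col4a1 at 75.7 ± 8.46 TPM, Col11a1 at 27.9 ± 5.79 TPM and Col4a5 at 26.4 ± 9.35 TPM. The means of Col4a2 and Col4a1 lay within 1 SD of each other, as did those of Col11a1 and Col4a5. Col7a1 ranked 11 of the 38 at 2.97 ± 2.11 TPM. With TGFB2, Col18a1 stood at 377 ± 79.4 TPM, Col7a1 ranked 4 at 56.8 ± 11.6 TPM, close to Col4a1 and Col4a2, and Col11a1 ranked 10 at 6.23 ± 2.92 TPM. With both ligands Col7a1 ranked 2 at 64.5 ± 16.6 TPM. With BMP4 alone Col9a3 ranked 4 at 30.6 ± 11.4 TPM.

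Summed over the 38 genes the level was 461 ± 58.4 TPM in NT, 697 ± 169 TPM with TGFB2, 451 ± 45 TPM with BMP4 and 611 ± 159 TPM with both. Collagen IV made up 42.8% ± 3.04 of this in NT, 20.9% ± 1.5 with TGFB2, 38.5% ± 3.47 with BMP4 and 21.6% ± 1.42 with both. The multiplexins made up 36.1% ± 4.9 in NT, 55.4% ± 3.44 with TGFB2, 35.5% ± 2.83 with BMP4 and 53.6% ± 4.42 with both. Collagen VII made up 0.617% ± 0.36 in NT, 8.23% ± 0.729 with TGFB2, 1.84% ± 0.915 with BMP4 and 10.6% ± 0.468 with both. Fibrillar collagens, most of them Col11a1 in NT, made up 6.67% ± 1.54, 2.26% ± 0.407, 4.67% ± 0.538 and 1.98% ± 0.351 in that order. Collagen IV itself summed to 197 ± 27.9 TPM in NT and 145 ± 33.9 TPM with TGFB2.

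**Figure D5:**
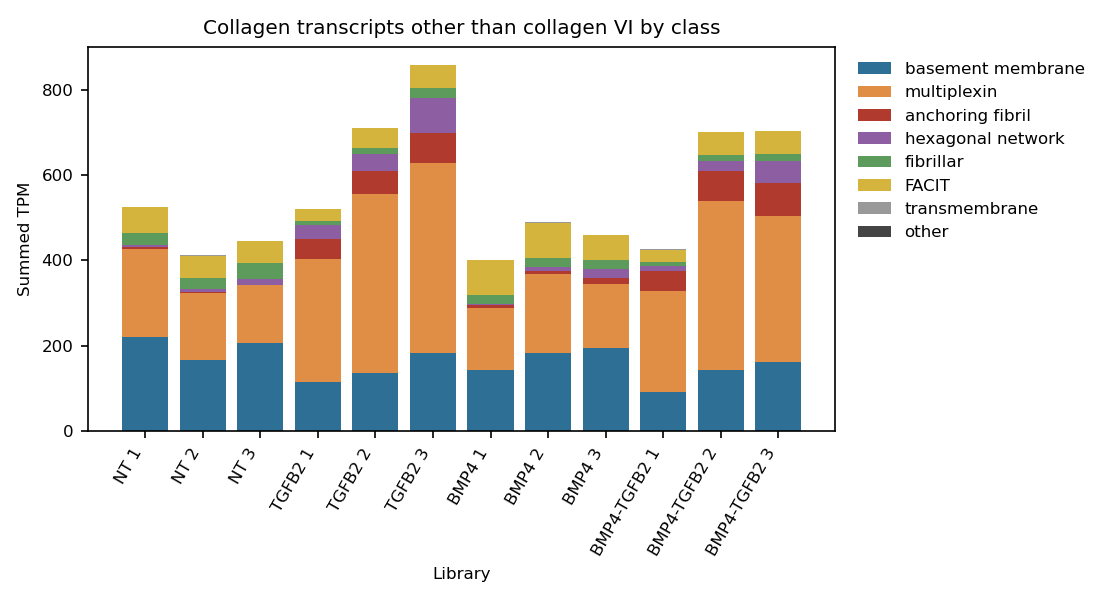
Summed TPM of the collagen classes (stacked colours) in each of the 12 libraries. Collagen IV and the multiplexins make up most of the bar in each library, and the anchoring fibril class, barely visible in NT, is a distinct band in all 6 libraries with TGFB2.

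Ratios between chains of the same collagen are given from TPM, with no test. The TPM ratio of Col4a1 to Col4a2, which share a start region, was 0.940 ± 0.0792 in NT, 0.978 ± 0.00558 with TGFB2, 0.806 ± 0.0914 with BMP4 and 0.902 ± 0.058 with both (SD, n = 3). Col4a5 to Col4a6, whose starts lie farther apart, was 1.85 ± 0.0853 in NT, 3.37 ± 0.244 with TGFB2, 2.20 ± 0.168 with BMP4 and 4.04 ± 0.759 with both. Col9a3 to Col9a2 was 1.19 ± 0.384 in NT, 2.61 ± 0.293 with TGFB2, 1.93 ± 0.498 with BMP4 and 6.14 ± 1.34 with both. Col1a1 to Col1a2 was 1.08 ± 0.456, 1.98 ± 0.21, 1.65 ± 1.22 and 2.57 ± 0.878 in that order, for genes below 10 CPM in every library.

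Replicate 3 was the highest library in all 4 groups for 9 of the 30 genes, where this held for 7.15% of all genes tested. The 9 were Col1a1, Col1a2, Col5a2, Col4a1, Col4a2, Col7a1, Col8a1, Col12a1 and Col15a1. Replicate 1 was the highest in all groups for Col9a2, against 12.4% of all genes, and replicate 2 for no collagen gene, against 2.62%. What the replicates differed in is not given in the labels, and its part in the levels was not tested.

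Collagen chains need hydroxylases, chaperones and processing proteases before they can form fibres. Of 35 such synthesis and crosslinking genes, 32 were tested, of which 13 rose and 4 fell with TGFB2, 2 rose and 1 fell with BMP4, and 12 rose and 4 fell with both, where 22.4%, 5.45% and 26.2% of all genes were called in these comparisons. Their median log2 fold changes were 0.83, 0.37 and 0.64, against 0.01, 0.00 and 0.01 over all genes. Bmp1, the protease that removes the C-terminal propeptide of fibrillar collagens, rose by 2.41 ± 0.11 with TGFB2 (adjusted p = 1.32e-06). The lysyl hydroxylase Plod1 rose by 1.68 ± 0.13 (adjusted p = 1.85e-05) and the prolyl hydroxylase subunit P4ha1 by 1.78 ± 0.21 (adjusted p = 0.000196). P3h2, a prolyl 3-hydroxylase that acts on collagen IV, fell, at -2.50 ± 0.32 (adjusted p = 0.000311). Of 10 collagen receptors, 8 were tested, of which 4 rose with TGFB2, 1 with BMP4 and 4 with both, where 1 also fell, beside the same shares of all genes. The collagen-binding integrin subunit Itga2 rose by 2.26 ± 0.36 with TGFB2 (adjusted p = 0.00126), Itga11 by 4.68 ± 1.12 (adjusted p = 0.0118) and the receptor kinase Ddr1 by 0.68 ± 0.17 (adjusted p = 0.0169).

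Because fibroblasts and cartilage cells are the usual source of many of these collagens, markers of other cell types were read in the same libraries. The mammary epithelium markers summed to 3941 to 5064 CPM over all libraries. Among them Krt14, a basal keratin, rose with BMP4 by 1.99 ± 0.36 (adjusted p = 0.00892) and with both by 1.42 ± 0.35 (adjusted p = 0.0118). Cdh1 (E-cadherin) fell with TGFB2, at -0.29 ± 0.1 (adjusted p = 0.0473), and with both, at -0.5 ± 0.1 (adjusted p = 0.00295). The luminal keratin Krt19 fell with TGFB2, at -0.71 ± 0.23 (adjusted p = 0.0442), and with both, at -0.68 ± 0.23 (adjusted p = 0.0458). The 10 fibroblast markers, none of them at 0 in all libraries, summed to 2.77 to 11.2 CPM in NT, 11.6 to 23.2 CPM with TGFB2, 5.35 to 16.4 CPM with BMP4 and 10.3 to 21.4 CPM with both. Of the 8 tested, Pdgfra (2.37 ± 0.4, adjusted p = 0.00171), Pdgfrb (2.99 ± 0.98, adjusted p = 0.0481) and Postn (2.64 ± 0.47, adjusted p = 0.0024) rose with TGFB2 and Pdgfra with both, while Dcn (0.04 ± 1.15, adjusted p = 0.986), Lum (0.27 ± 1.13, adjusted p = 0.89), Dpt (0.25 ± 0.66, adjusted p = 0.828), Mfap5 (-0.34 ± 0.81, adjusted p = 0.801) and Pdpn (0.86 ± 0.8, adjusted p = 0.484) were not called with TGFB2. Fap had 16 counts and Thy1 37 counts over the 12 libraries. The 5 markers of pericytes and smooth muscle summed to 25.9 to 36.0 CPM in NT, 65.3 to 141 CPM with TGFB2, 32.5 to 82.5 CPM with BMP4 and 50.4 to 138 CPM with both. Most of this sum was Mcam, with group means of 23.5 CPM in NT and 85.6 CPM with TGFB2. Mcam rose with TGFB2 by 1.85 ± 0.49 (adjusted p = 0.0191), and Mcam and Rgs5 rose with both, by 1.73 ± 0.49 (adjusted p = 0.0224) and 1.54 ± 0.49 (adjusted p = 0.0375). Cspg4, Acta2 and Myh11 were not called against NT. Of the 4 chondrocyte markers Sox9, which mammary epithelium also expresses, read 268 to 477 CPM in NT, while Matn1 had 1 count and Cnmd 55 counts in all. Acan, the main proteoglycan of cartilage, read 0, 0.028 and 0.389 CPM in NT, 0.166, 0.494 and 2.09 CPM with TGFB2, 0.355, 0.987 and 8.16 CPM with BMP4 and 0.826, 1.75 and 3.2 CPM with both. It was not called against NT, at 4.54 ± 1.5 (adjusted p = 0.113) with BMP4 and 3.8 ± 1.47 (adjusted p = 0.0789) with both, and its libraries overlapped NT with TGFB2 and with BMP4. Col11a2 was also highest with BMP4, and the part of cartilage-like expression in its level was not tested. Endothelium markers summed to at most 4.29 CPM and leukocyte markers to at most 8.29 CPM in any library, with no call under TGFB2. The part of these markers in the collagen changes was not tested.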

How the data were processed

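RNA for 12 libraries of PYMT cells was captured on oligo(dT) beads, made into unstranded libraries with the NEBNext Ultra II RNA kit and sequenced in a single batch, per the labels' protocols and the deposited sample sheet. The submitters' processing notes name Salmon 1.2.1, STAR 2.7.5b, bcl2fastq 2.17 and the build GRCm38.p6. Which tool did what, and with which settings, is not given in the sources used here. Estimated counts per gene, of which 82.9% were whole, and TPM, scaled for length and depth, were deposited by the authors. Other deposited values were not used.

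Counts were rounded, which changed the total by 0.000361%. The 15319 genes that passed filterByExpr (minimum count 10) were tested with edgeR 4.0.16 (quasi-likelihood, TMM, all 12 libraries in 1 model by group) in R 4.3.3, in 7 comparisons, with Benjamini-Hochberg adjustment over all genes tested and a call at an adjusted p under 0.05. Adjusted p-values are from edgeR unless DESeq2 (1.42.0) is named. TMM factors were 0.971 to 1.03 and the common biological coefficient of variation 0.299. The procedure was tested on simulated data. CPM are rounded counts scaled to the library total. The ± gives an SE for a log2 fold change and otherwise an SD of 3 libraries. TPM served only for levels between genes and for class sums.

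Per-library values are given for each collagen gene called in any comparison and for a fixed set of collagens. Of the synthesis and receptor lists, fold changes are given for up to 4 genes with the smallest p in a comparison. The members and lists were chosen with earlier results of these data known. Across genes, a library's deviation from its group mean correlated above 0.1 with that of the same-numbered library, for all 3 numbers, between BMP4 and NT (0.16 to 0.44), TGFB2 and BMP4 (0.15 to 0.35), TGFB2 and BMP4-TGFB2 (0.23 to 0.50), and BMP4 and BMP4-TGFB2 (0.15 to 0.35). These replicate numbers were taken as pairs, but only the fit with the replicate block used the pairing. The model by group did not, and it gave the edgeR calls where no block is named. Alternatives were DESeq2, its size factors in edgeR, no filter, the replicate block, a fit on only the groups compared, and leaving out each library or all replicate 1 libraries. Positions are from GENCODE M21 and were matched for 35 of the 38 genes.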

Additional observations from a re-analysis of the deposited data

Results flagged for a closer look

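Col14a1, a FACIT collagen gene of low level, had single-ligand and added-ligand effects that went opposite ways. TGFB2 raised it without BMP4 in every library (0.617, 0.625 and 0.649 CPM against 0.213, 0.0841 and 0.150 CPM in NT), while TGFB2 on top of BMP4 went with lower values in every library (0.275, 0.035 and 0.194 CPM against 1.12, 0.541 and 0.669 CPM with BMP4). Read the other way, BMP4 went with higher values without TGFB2 and lower values with it. The 2 readings are the same interaction, at -4.21 on the log2 scale with an adjusted p of 0.113 in edgeR without a replicate block. With the replicate block it was -4.40 with an adjusted p of 0.0294, although the numbers did not meet the rule for pairs between all 4 groups. The libraries with both ligands held at most 10 counts of the gene. Col14a1 reached the filter's minimum in no NT library and in none with both ligands. It was therefore tested only through its level in the single-ligand groups, the same values that make this interaction negative.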

How the results depend on the processing

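No called member changed sign under any alternative run. Of the called members, 12 of 18 kept the call under every alternative in TGFB2 against NT, 0 of 5 in BMP4 against NT, 13 of 17 in BMP4-TGFB2 against NT, 5 of 10 in BMP4-TGFB2 against BMP4 and 3 of 9 in BMP4 against TGFB2. Counts of called members in BMP4 against NT were 5, and 10 with DESeq2, 8 without the filter, 11 with the replicate block and 3 without all replicate 1 libraries. In that order 5.45%, 10.2%, 3.59%, 15.4% and 4.37% of all genes were called. The replicate block kept all 5 of the calls in BMP4 against NT, and other runs lost them. In BMP4-TGFB2 against BMP4 the counts were 10, and 17 with the block and 6 in the fit of only these groups, where 9.22%, 22.7% and 6.57% of all genes were called. In BMP4 against TGFB2 the counts were 9, and 15 with the block, where 7.83% and 19.6% of all genes were called. In the interaction the counts were 0, and 4 with DESeq2, 3 without the filter and 6 with the block, where these settings called 1.95%, 0.571% and 1.83% of all genes. The 6 called with the block were Col12a1 (adjusted p = 0.012), Col15a1 (0.0128), Col14a1 (0.0294), Col1a1 (0.0412), Col8a2 (0.0459) and Col8a1 (0.0485), for groups whose numbers met the rule for pairs in 4 of 6 combinations. Leaving out 1 library at a time gave 14 to 17 members in TGFB2 against NT, 1 to 4 in BMP4 against NT, 13 to 17 in BMP4-TGFB2 against NT, 0 in BMP4-TGFB2 against TGFB2, 5 to 10 in BMP4-TGFB2 against BMP4, 4 to 9 in BMP4 against TGFB2 and 0 to 1 in the interaction, where the 1 came without NT replicate 3. In the comparisons against NT, in that order, these runs called 12.7% to 22.9%, 1.84% to 4.67% and 15.9% to 26.5% of all genes. In the others they called 0% to 0.00633%, 4.11% to 8.17%, 3.5% to 7.1% and 0% to 0.163%. Fewer libraries leave fewer degrees of freedom, and other causes of these shifts were not tested. DESeq2 gave no adjusted p for 1 member.

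In TGFB2 against NT and BMP4-TGFB2 against NT the replicate numbers missed the rule of correlations above 0.1 (lowest 0.080 and 0.026). Missing that rule does not show that the libraries were unpaired. The replicate block gave 23 and 20 calls there against 18 and 17, where it called 37.8% and 41.4% of all genes, and every library correlated best with its own number in the first (6 of 6) and 4 of 6 in the second. The block added Col5a1, Col1a2, Col5a2, Col2a1 and Col4a2 in the first. In the second it added Col8a1, Col5a1, Col4a1 and Col4a2, and Col25a1 lost its call. In BMP4-TGFB2 against TGFB2 the block called 0 members. Members at few counts (Col5a3, Col4a3, Col8a2, Col14a1, Col17a1, Col25a1) have imprecise fold changes, since NT or treated libraries held as few as 0 to 11 counts.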
